A study of Mus musculus with 6 samples.

Results

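Slpi, Spink1 and their relatives Wfdc2 and Wfdc15b, with the serine proteases Cela1, Elane, Ctsg and Prtn3, are 8 genes of secreted protease inhibitors and elastase-type enzymes. They were taken by name from the 34741 genes or transcripts named on the array, and 9 probes measured them. The set was chosen by the measured difference between tumor and normal liver in these same 6 samples, so its tumor and normal values are given as a description and no p-value is attached to them. The samples were 3 normal livers and 3 macroscopic liver tumors that carried a Ha-ras mutation. All mice were untreated male C3H/HeN mice of 74 to 75 weeks, from F2 pups of a control group kept on standard diet and tap water, a strain whose males develop liver tumors spontaneously. Tumors were whole tissue pieces and not sorted cells. Each RNA was hybridized with Cy3 to its own Agilent SurePrint G3 mouse array, and an expression value is the processed signal of a probe divided by the 75th percentile of its array.

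Slpi, the secretory leukocyte protease inhibitor, carries whey acidic protein (WAP) domains and blocks neutrophil elastase and cathepsin G, and it is known mainly from mucosal epithelia. Spink1, named Spink3 on the array after its older mouse symbol, is a Kazal-type inhibitor that pancreatic acinar cells secrete to restrain trypsin. Elane, Prtn3 and Ctsg encode the neutrophil granule proteases elastase, proteinase 3 and cathepsin G, which are transcribed mainly in bone marrow precursors, and Cela1 encodes a chymotrypsin-like elastase of the digestive type.

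Slpi, Wfdc15b and Wfdc2 lie on chromosome 2 of the mouse (GRCm38.p6), Slpi at chr2:164354070-164356507, Wfdc15b at chr2:164214454-164221663 and Wfdc2 at chr2:164562715-164568510. The gap from Wfdc15b to Slpi is 132 kb and that from Slpi to Wfdc2 is 206 kb. The promoters of Slpi and of the WAP genes Wfdc15b, Wfdc15a and Wfdc12 are shown because the values of these genes lay higher in the tumors, and the Cela1 promoter because Cela1 did so on another chromosome. Each window runs from 150 bases before to 30 bases after the RefSeq start and is on the minus strand, written 5′ to 3′. Capitals mark matches, on either strand, to TATAAA (core promoter box), TGANTCA (AP-1 site), CACGTG (E-box), CGTG (core of the xenobiotic response element, also contained in CACGTG) and the NF-kB site.
Slpi, chr2:164356478-164356657: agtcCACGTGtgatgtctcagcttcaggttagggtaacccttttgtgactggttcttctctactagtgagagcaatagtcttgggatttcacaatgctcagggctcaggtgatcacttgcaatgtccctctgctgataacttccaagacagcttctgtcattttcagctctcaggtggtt
Wfdc15b, chr2:164221634-164221813: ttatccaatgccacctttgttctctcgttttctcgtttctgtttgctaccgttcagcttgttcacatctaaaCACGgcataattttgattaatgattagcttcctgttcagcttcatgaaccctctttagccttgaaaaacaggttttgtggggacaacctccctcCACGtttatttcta
Wfdc15a, chr2:164200088-164200267: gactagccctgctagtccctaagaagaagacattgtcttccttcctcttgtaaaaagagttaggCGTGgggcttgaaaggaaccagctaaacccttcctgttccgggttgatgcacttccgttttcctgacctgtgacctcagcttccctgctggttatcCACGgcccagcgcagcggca
Wfdc12, chr2:164190529-164190708: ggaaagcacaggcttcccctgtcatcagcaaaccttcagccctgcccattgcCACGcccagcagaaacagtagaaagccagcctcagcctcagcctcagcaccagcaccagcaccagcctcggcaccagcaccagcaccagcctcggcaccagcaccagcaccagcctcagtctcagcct
Cela1, chr15:100687891-100688070: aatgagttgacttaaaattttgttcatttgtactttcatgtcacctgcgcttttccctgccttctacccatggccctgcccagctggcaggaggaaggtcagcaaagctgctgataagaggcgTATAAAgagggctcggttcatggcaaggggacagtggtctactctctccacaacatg

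The Slpi window held 1 CpG site, which lay inside its CACGTG match at position -146 from the start. A CACGTG was present in 5.09% of the 32851 RefSeq promoter windows of this length, and 24.2% of them had as few CpG sites as Slpi or fewer, against a median of 5. The windows of Wfdc15b, Wfdc15a and Wfdc12 held 5, 6 and 3 CpG sites and CGTG matches, a motif found in 48.2% of all windows. Only the Cela1 window among the 5 held TATAAA, at position -27, usual for the core promoter box, and 8.37% of all windows held this motif. None of the 5 windows held TGANTCA or the NF-kB site, which 4.99% and 5.32% of all windows held. These matches describe the sequence and were not tested against expression.

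Slpi showed the widest gap between the groups among the inhibitors. Its expression value was 0.701, 1.05 and 0.702 in normal livers 1, 2 and 3, and 438, 201 and 363 in tumors 1, 2 and 3. All 3 tumors lay far above all 3 normal livers, and the probe was well above background, by the criterion of Feature Extraction, on all 6 arrays. A probe that met this criterion on no array is called at background here. The mean was 0.817 ± 0.201 (SD, n = 3) in normal liver and 334 ± 122 (SD, n = 3) in tumors, a log2 fold change of 8.63 ± 0.32 (SE) with a 95% interval of 7.86 to 9.39, or 395-fold on the geometric scale. Among the tumors the highest value was 2.19 times the lowest, so the spread within a group was small beside the difference between groups. The 3 normal livers shared 1 scan and the 3 tumors another, with a median local background of 42 to 45 and of 22 to 23 intensity units. For every value here, the effect of the scan and that of the tissue therefore cannot be told apart. In bulk tissue, a change in the number of cells that express a gene and a change in RNA per cell cannot be told apart either.

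Wfdc15b, a small secreted WAP protein whose gene stands in the same cluster, was the next WAP gene. Its values were 3.91, 6.94 and 5.82 in the normal livers and 143, 87.9 and 79.1 in the tumors. The groups did not overlap, and tumor 1 was the highest, as for Slpi. The mean was 5.55 ± 1.53 (SD, n = 3) against 103 ± 34.5 (SD, n = 3), a log2 fold change of 4.21 ± 0.30 (SE) with an interval of 3.50 to 4.92.

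Wfdc2, the WAP protein known as HE4 and used as a serum marker of ovarian cancer, did not share this pattern. Its brighter probe gave 2.38, 2.95 and 2.69 in the normal livers and 0.672, 1.24 and 3.86 in the tumors. Tumors 1 and 2 lay below every normal liver and tumor 3 above every one, so that the groups overlapped. The highest tumor was 5.74 times the lowest, the widest ratio among the tumors for any of these 8 genes, while the normal livers differed by 1.24 times. The log2 fold change was -0.85 ± 0.59 (SE), with an interval from -2.27 to 0.56, and it was -0.28 without tumor 1 and -1.54 without tumor 3. A second Wfdc2 probe gave 0.854, 1.23 and 1.13 in the normal livers and 0.322, 0.634 and 1.57 in the tumors, the same order of samples in the tumors, and a log2 fold change of -0.63 ± 0.54 (SE).

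Spink1, the inhibitor of trypsin, was second to Slpi in the size of its difference. The gene lies at chr18:43728069-43737237. Its values were 0.892, 0.319 and 0.458 in the normal livers and 160, 124 and 53.0 in the tumors. All tumors lay above all normal livers, and both groups varied by about the same factor, 2.80 times from lowest to highest in normal liver and 3.03 times in tumors. The means were 0.556 ± 0.299 and 113 ± 54.7 (SD, n = 3 each), a log2 fold change of 7.65 ± 0.52 (SE) with an interval of 6.41 to 8.89, or 201-fold.

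**Figure D1:**
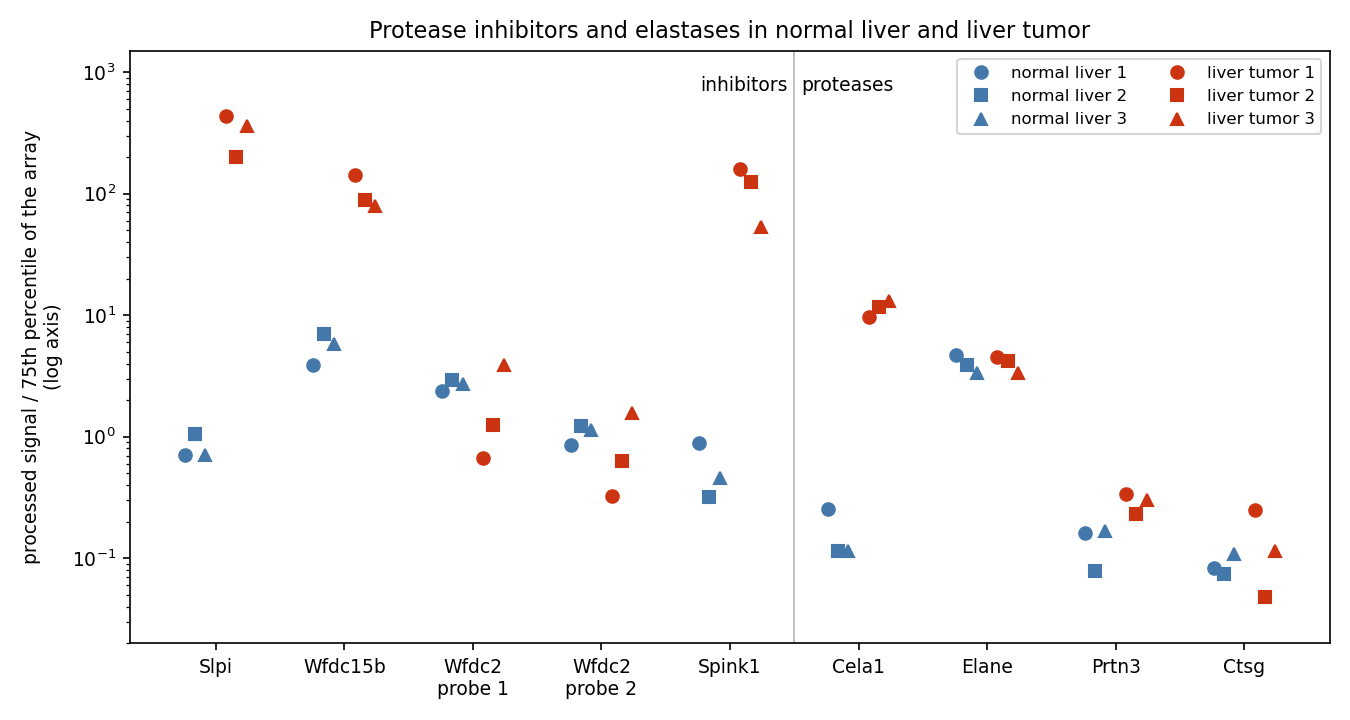
Expression value of each probe on each array, as processed signal divided by the 75th percentile of the array, on a log axis; blue symbols are the 3 normal livers and red symbols the 3 liver tumors, with the same shape for the same replicate number. Slpi, Wfdc15b, Spink1 and Cela1 separate widely, Wfdc2 and Elane overlap, and Prtn3 and Ctsg are dim; heights of different probes are not comparable.

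Of the proteases, Cela1 was the gene with a large difference. It lies at chr15:100674422-100687920. Its values were 0.253, 0.115 and 0.116 in the normal livers, where it was well above background on 1 of 3 arrays, and 9.73, 11.7 and 13.1 in the tumors, where it was well above background on all 3. The groups did not overlap, and tumor 3 was the highest and tumor 1 the lowest, the reverse of Wfdc15b and Spink1. The means were 0.161 ± 0.0793 and 11.5 ± 1.71 (SD, n = 3 each), a log2 fold change of 6.25 ± 0.33 (SE) with an interval of 5.47 to 7.03. This size leans on dim normal arrays, and with another background correction (normexp with an offset of 50) it was 4.40. The tumors agreed within 1.35 times, the narrowest ratio among the tumors for these 8 genes.
Cela1 probe, 5′ to 3′ as listed for the array: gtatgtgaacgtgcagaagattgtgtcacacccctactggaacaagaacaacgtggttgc

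The 60 bases of the Cela1 probe are printed because the enzyme has close relatives. Their longest run shared with a probe of another gene was 13 bases. For the probes of the other 7 genes that run was 12 to 19 bases. Probes were compared with probes only and not with whole transcripts. Whether a probe reads the RNA of a relative was therefore not tested.

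Elane did not differ between the groups by more than the spread between samples. Its values were 4.69, 3.88 and 3.32 in the normal livers and 4.57, 4.17 and 3.35 in the tumors. The groups overlapped completely, and every array was well above background. The means were 3.96 ± 0.689 and 4.03 ± 0.618 (SD, n = 3 each), and the log2 fold change was 0.03 ± 0.18 (SE) with an interval from -0.40 to 0.46.

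Prtn3, whose gene lies 3.14 kb from Elane on chromosome 10 (chr10:79879667-79883174 and chr10:79886312-79888216), was dim. Its values were 0.162, 0.0786 and 0.169 in the normal livers, well above background on 1 of 3 arrays, and 0.335, 0.229 and 0.302 in the tumors, well above background on 3 of 3. The tumors lay above the normal livers without overlap. The log2 fold change was 1.14 ± 0.32 (SE), with an interval of 0.37 to 1.92, and it was 0.29 with the normexp background correction.

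Ctsg (chr14:56099885-56102574) was above background on 1 array of 6. Its values were 0.0825, 0.0741 and 0.109 in the normal livers and 0.250, 0.0480 and 0.115 in the tumors, and tumor 1 alone was well above background. It was the only gene of the 8 that did not pass the filter, which asked for a signal well above background on every array of 1 group or both. Tumor 2 lay below and tumors 1 and 3 above all normal livers.

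Of the 8 genes, 5 had groups that did not overlap (Slpi, Wfdc15b, Spink1, Cela1 and Prtn3), and 3 overlapped (Wfdc2, Elane and Ctsg). Among all 18545 genes tested (a gene's probe was that of the highest mean log2 signal), 51.8% had groups that did not overlap. Limma called 34.1% of these genes at an adjusted p under 0.05, 13.1% as higher and 21% as lower in the tumors. At the level of probes, 3112 of 8239 calls were higher and 5127 lower, and after scaling on the spike-in controls 3310 were higher and 1827 lower, a scaling that moved the median log2 fold change of all probes up by 0.21. Counts among relatives, neighbours and markers are to be read against these shares. The labels do not say whether the samples came from separate animals, so p-values measure the spread between these samples only.

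Relatives of Slpi in the WAP family went both ways. Of 20 further WAP family genes on the array, 7 passed the filter and limma called 5, of which 2 rose and 3 fell, and their median log2 fold change was -0.24 against -0.13 over all genes tested. Both that rose are neighbours of Wfdc15b. Wfdc15a had values of 0.0990, 0.221 and 0.0446 in the normal livers, well above background on 1 of 3 arrays, and 1.92, 1.26 and 1.20 in the tumors. This gave a log2 fold change of 3.85 ± 0.56 (SE, adjusted p = 0.00434). Wfdc12 had 0.869, 1.14 and 1.16 in the normal livers and 5.0, 3.27 and 4.95 in the tumors. Its log2 fold change was 2.05 ± 0.21 (SE, adjusted p = 0.00151). The probes of Wfdc15a and Wfdc12 shared at most 14 bases in a run with a probe of another gene, and the Wfdc15b probe at most 16. Here too the comparison was with probes and not with transcripts.

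Wfdc21 went the other way and was bright in normal liver. Its values were 502, 501 and 486 in the normal livers and 9.50, 88.6 and 109 in the tumors. Tumor 1, the highest for Slpi, was the lowest for Wfdc21. The log2 fold change was -3.46 ± 0.89 (SE, adjusted p = 0.0273), and the call was lost when normal liver 1, 2 or 3 was left out (highest adjusted p 0.0751). Wfdc1 and Wfdc17 also fell, by 1.38 and 1.06 on the log2 scale (adjusted p = 0.0124 and 0.0157), and the Wfdc17 call was lost without the filter on dim probes (adjusted p = 0.0539). Wfdc8 and Wfdc13 were tested and not called, and 8 WAP genes, Wfdc5, Wfdc6a and Eppin among them, stayed at background on all 6 arrays.

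Among the Kazal inhibitors, Spink1 stood beside a relative that fell. Of 12 other Spink-type genes on the array, 10 stayed at background throughout and 1, Spink6, was tested. Its values were 2.98, 0.306 and 5.67 in the normal livers and 0.0239, 0.0203 and 0.167 in the tumors. All tumors lay below all normal livers, but the normal livers themselves differed widely, and only 1 of the 3 tumor arrays was well above background, so the size of the fall depends on dim signals. Limma gave a log2 fold change of -5.32 ± 1.26 (SE, adjusted p = 0.0211), which was -2.53 with normexp. The call was lost without the filter on dim probes (adjusted p = 0.0593) and without normal liver 1 or 3 or tumor 1 or 2 (highest adjusted p 0.0677). Spink6 lies 334 kb from Spink1, at the same locus.

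The Kunitz inhibitors are a further family that acts on trypsin-like enzymes. Of 7 on the array 3 were tested and 1 was called, Tfpi, the tissue factor pathway inhibitor, with a log2 fold change of 0.50 ± 0.12 (SE, adjusted p = 0.0242). The other 2 Tfpi probes gave 0.09 and 0.23 and were not called, and the call was lost without normal liver 1 or 2 or tumor 1 or 2 (highest adjusted p 0.0859). Spint2, which restrains hepsin and matriptase, gave 0.08 ± 0.11 (SE, adjusted p = 0.624).

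The serpins and macroglobulins that bind elastases or trypsins are the main inhibitors in hepatocytes and plasma. Of 19 on the array, 15 were tested and 7 were called, of which 1 rose and 6 fell, with a median log2 fold change of -0.26 against -0.13 over all genes. Serpinb1a, the intracellular serpin that inhibits the 3 neutrophil proteases measured here, had values of 9.91, 27.1 and 13.1 in the normal livers and 0.156, 4.87 and 1.11 in the tumors. The groups did not overlap, and tumor 1 was again the lowest. The log2 fold change was -4.01 ± 1.18 (SE, adjusted p = 0.0418), and the call was lost without normal liver 1, 2 or 3 or tumor 3 (highest adjusted p 0.119).

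Serpina3k fell by 2.03 on the log2 scale (adjusted p = 0.0128), Mug2 by 1.22 (adjusted p = 0.00326), Mug1 by 1.11 (adjusted p = 0.00369) and Serpina3m by 0.74 (adjusted p = 0.00612, or 0.134 with spike-in scaling). Serpina3n, an acute-phase serpin, rose by 1.21 ± 0.21 (SE, adjusted p = 0.00829), from 14.3, 13.7 and 15.1 to 46.1, 29.7 and 26.6. The alpha-1 antitrypsin genes, whose product is the main plasma inhibitor of neutrophil elastase, stayed within -0.36 to -0.07 by the brightest probe of each. Of the 4 measured (Serpina1a, Serpina1c, Serpina1d and Serpina1e) Serpina1e was called (adjusted p = 0.0442), a call lost when any 1 array was left out (highest adjusted p 0.113). A second Serpina1e probe gave -0.40 (adjusted p = 0.0354). Serpina1, Serpina3 and Mug genes are near-identical families, so their probes may read each other's transcripts. The highest adjusted p of Serpina3k, Serpina3m, Serpina3n, Mug1 and Mug2 with 1 array left out was 0.0448.

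**Figure D2:**
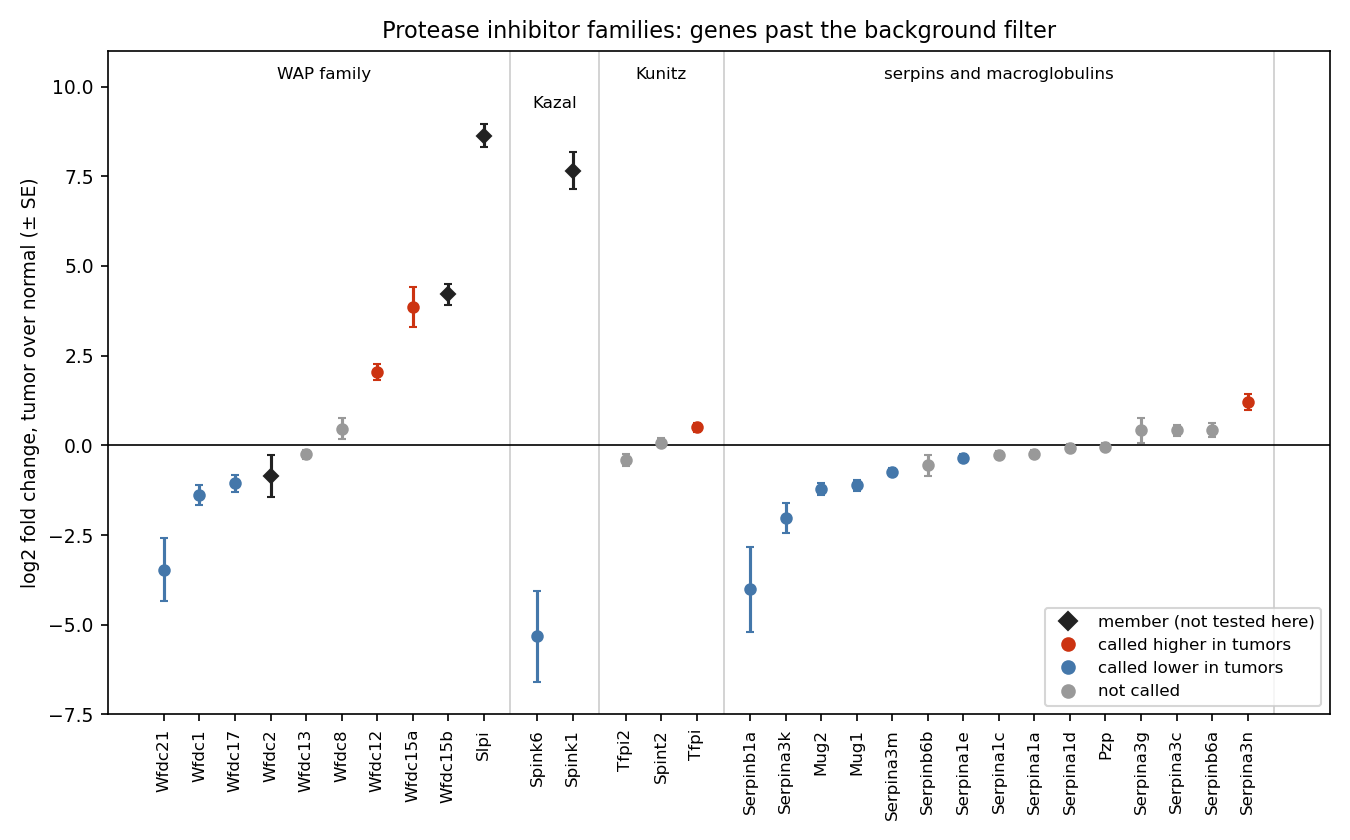
Log2 fold change, tumor over normal liver, with its SE, for the genes of 4 protease inhibitor families that passed the background filter; black diamonds are Slpi, Wfdc15b, Wfdc2 and Spink1, red and blue points are relatives called higher or lower by limma, and grey points were not called. Slpi at 8.63 and Spink1 at 7.65 lie above every relative plotted, and the position of Spink6 depends on tumor signals of which 1 of 3 was well above background.

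The digestive proteases were set beside Cela1. Of 11 other pancreatic elastases, chymotrypsins and trypsins on the array, 6 stayed at background throughout, Cela2a, Cela3b, Prss1 and Prss2 among them, and 4 were tested. Klk1, tissue kallikrein, rose from 0.661, 0.756 and 1.01 to 5.16, 4.99 and 5.75, a log2 fold change of 2.73 ± 0.18 (SE, adjusted p = 0.00027). Ctrc, chymotrypsin C, fell by 0.61 (adjusted p = 0.0420), a call lost without normal liver 2 or 3 or tumor 1 or 2 (highest adjusted p 0.121), and Ctrb1 and Ctrl were not called.

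Markers of pancreatic acinar cells, which make Cela1 and Spink1 in the pancreas, were read beside them. Of 17 markers on the array, 12 stayed at background throughout, including the defining genes Pnlip, Cpa1, Cpb1, Prss2, Try4 and the transcription factor Ptf1a. Of the 4 tested, 1 rose and 1 fell. The summed value of the list was 15.8 to 17.6 in the normal livers and 7.22 to 9.53 in the tumors, and its difference came mainly from the amylase gene Amy2a5, which fell by 1.27 on the log2 scale (adjusted p = 0.00453). Cel, a lipase, rose from 0.249, 0.201 and 0.205 to 0.548, 0.453 and 0.433 (log2 fold change 1.13, adjusted p = 0.00312). The part of acinar cells in the Cela1 and Spink1 values was not tested.

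For the neutrophil proteases, the marker list of the cell type showed no common shift. Of 15 neutrophil markers on the array, 7 were tested and 1 was called, Stfa2, which rose by 0.99 (adjusted p = 0.0392). The summed value was 151 to 169 in the normal livers and 131 to 182 in the tumors, most of it from Csf3r, the receptor of granulocyte colony-stimulating factor, at 153, 159 and 141 against 155, 173 and 124. Mpo, the myeloperoxidase made together with Elane, Prtn3 and Ctsg, and Mmp8, Mmp9 and Cebpe stayed at background throughout, whereas Elane was well above background on all 6. S100a8 and S100a9 stood out in tumor 1 alone, at 3.37 and 12.9 against at most 1.01 and 4.51 elsewhere. Tumor 1 also had the highest Prtn3 and Ctsg values, but Elane was highest in normal liver 1. Stfa2 was highest in tumor 1 too, as were Cxcr2, Ngp, Ltf and Retnlg, which were too dim to be tested. The other markers were not. Ly6g was lowest in tumor 1, at 1.10 against at least 1.41 elsewhere, and Camp and Fpr1 in tumor 1 lay within the range of the normal livers. The part of neutrophil content in these values was not tested.

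Of the 4 further azurophil granule genes on the array, 2 were tested. Ctsc, cathepsin C, the enzyme that activates the granule proteases, rose by 0.63 ± 0.18 (SE, adjusted p = 0.0374), from 5.69, 6.96 and 8.31 to 12.4, 9.87 and 9.89. A second Ctsc probe gave 1.31 (adjusted p = 0.00407), and the call of the brighter probe was lost in 5 of 6 fits that left out 1 array, all but that without normal liver 3 (highest adjusted p 0.0966). Among 13 granzymes and mast cell proteases, 10 stayed at background throughout and limma called 0 of the 3 tested, of which 1, Gzmk, had an unadjusted p under 0.05. Gzmk had a value in 1 tumor only, the spots of the other 2 being marked as outliers, so its fit assumes that the tumor varies like the other samples.

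**Figure D3:**
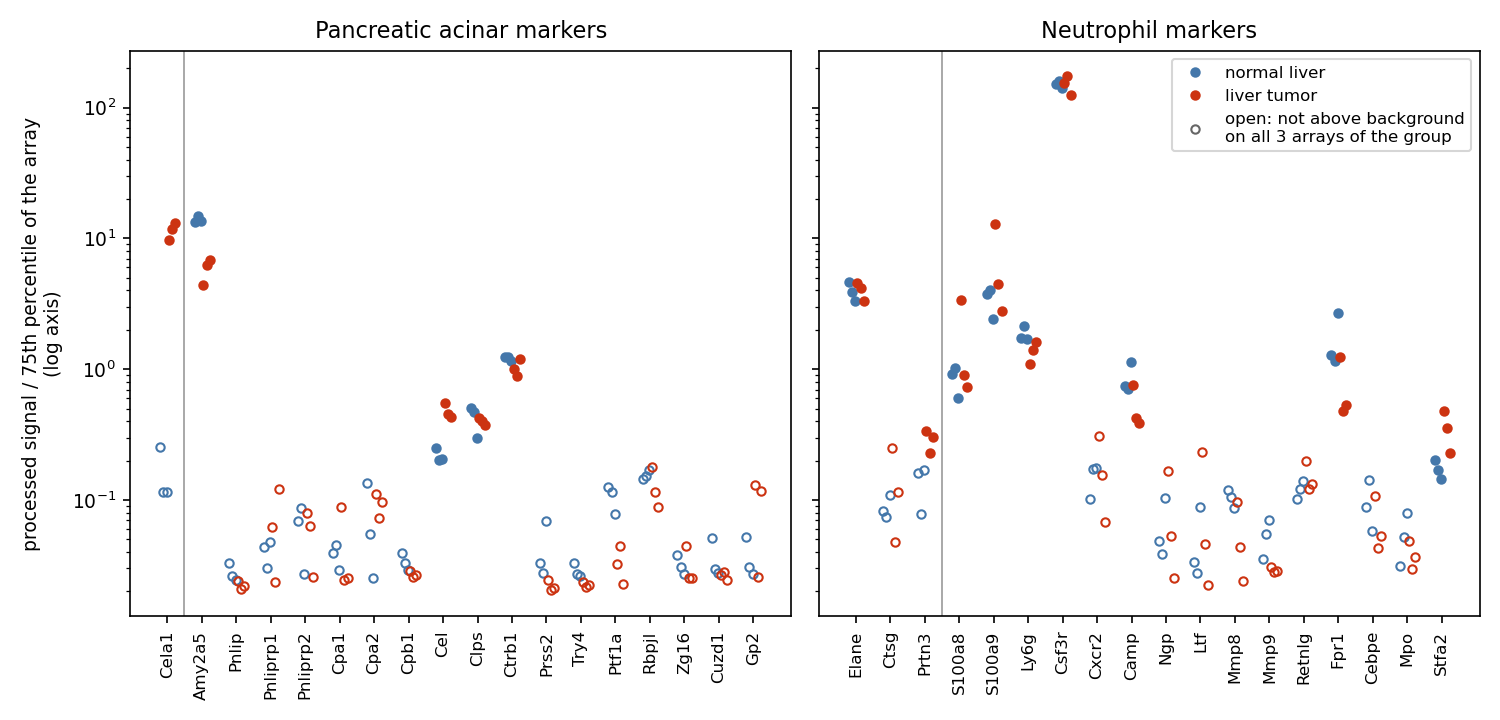
Expression value on each array (log axis) of Cela1 beside 17 pancreatic acinar markers, left, and of Elane, Ctsg and Prtn3 beside 15 neutrophil markers, right; blue is normal liver, red is liver tumor, and open symbols mark a group in which the probe was not well above background on all 3 arrays. Most acinar markers are at background where Cela1 reaches 9.73 to 13.1 in the tumors, and Elane is above background on every array while Mpo is on none; heights of different probes are not comparable.

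Substrates of elastases were followed through 15 genes of elastic fibres and progranulin. Elastin itself (Eln) stayed at background throughout. Of the 9 tested genes 1 rose and 2 fell, and progranulin (Grn), a protein that Slpi shields from elastase, gave a log2 fold change of 0.17 ± 0.12 (SE, adjusted p = 0.314). Efemp1, fibulin 3, fell by 1.65 (adjusted p = 0.0164), a call lost without normal liver 2 or tumor 2 (highest adjusted p 0.0533), and Fbln1 fell by 0.57 (adjusted p = 0.0465), a call that held in 1 of the 6 fits with an array left out, that without normal liver 3 (highest adjusted p 0.138). Loxl1, a cross-linking oxidase of elastin, was by its brighter probe at background in normal liver and at least 1.70-fold higher in the tumors (adjusted p = 0.0245), measured against the higher of the probe's own signal and the lowest signal well above background on each array. A second Loxl1 probe, above background on 1 normal array and on no tumor array, did not pass the filter and gave -1.05, so the probes differ in direction. The call was lost with normexp (adjusted p = 0.270) and without normal liver 2 or 3 or tumor 1 or 2 (highest adjusted p 0.0779).

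Around Slpi, the genes within 500 kb were examined because several of the genes above lie there. Of 59 annotated neighbours 48 were on the array and 24 were tested. Apart from Wfdc15b and Wfdc2, limma called 11 of 22, 8 as higher and 3 as lower. The 8 include Wfdc12 and Wfdc15a, already described above, so the count is not independent of the choice of this window. Over all genes tested, 34.1% were called, 13.1% as higher and 21% as lower. Wfdc12, Wfdc15a and Wfdc15b stand next to each other on one side of Slpi, and from Wfdc12 to Slpi the stretch is 167 kb. The seminal vesicle genes between Wfdc15b and Slpi (Svs2, Svs3a, Svs3b, Svs4, Svs5 and Svs6) stayed at background throughout. On the other side, Matn4, Sdc4, Sys1 and Pigt were tested and not called.

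Dbndd2, 111 kb from Slpi, rose by 0.96 ± 0.12 (SE, adjusted p = 0.00286) with its brighter probe and gave 0.27 (adjusted p = 0.274) with a second. Farther away, Ube2c, a ubiquitin-conjugating enzyme of mitosis, rose by 3.33 ± 0.23 (SE, adjusted p = 0.000329). Rims4 was at background in normal liver and at least 1.87-fold higher in the tumors (adjusted p = 0.000212, or 0.0546 with normexp). Ywhab rose by 0.42, Dnttip1 by 0.53, and Snx21 fell by 0.54. The calls of all 3 were lost without normal liver 2, that of Snx21 also without tumor 2 and that of Ywhab without any array but tumor 1, with adjusted p up to 0.0590 for Dnttip1, 0.0562 for Snx21 and 0.120 for Ywhab. A second Dnttip1 probe gave 0.52 (adjusted p = 0.0226) and another -1.34 (adjusted p = 0.00351), so the probes differ in direction.

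The nearest neighbour of Cela1 rose in the tumors. Galnt6, which starts protein O-glycosylation and whose gene lies 1.995 kb from that of Cela1, had values of 0.767, 0.664 and 0.740 in the normal livers and 86.0, 55.1 and 51.7 in the tumors. The log2 fold change was 6.44 ± 0.21 (SE, adjusted p = 3.09e-05), and a second probe, above background in the tumors only, was called as well (adjusted p = 4.68e-05). Unlike Cela1, Galnt6 was highest in tumor 1.

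Beyond Galnt6, I730030J21Rik at 42.6 kb rose from 117, 115 and 136 to 444, 265 and 264 (log2 fold change 1.36 ± 0.23 (SE), adjusted p = 0.00665). Scn8a, a voltage-gated sodium channel gene 182 kb away, rose from 33.9, 32.5 and 30.9 to 173, 95.1 and 94.9 (log2 fold change 1.84 ± 0.25 (SE), adjusted p = 0.00346), while another tested Scn8a probe gave -0.21 (adjusted p = 0.493). On the other side of Cela1, Dazap2 fell by 0.76 and Letmd1 by 0.71, calls lost with spike-in scaling (adjusted p = 0.138 and 0.152), Methig1 was at least 3.57-fold higher, and Csrnp2 rose by 0.56, a call lost without normal liver 1 or 2 (highest adjusted p 0.0655). In all, limma called 7 of the 19 tested genes within 500 kb of Cela1, 5 higher and 2 lower. The shares over all genes tested were 34.1% called, 13.1% higher and 21% lower. Around Spink1, 2 of 12 neighbours on the array were tested, Spink6 and Dpysl3, which rose by 0.54 (adjusted p = 0.0357), a call that held in 1 of the 6 fits with an array left out, that without tumor 3 (highest adjusted p 0.106).

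**Figure D4:**
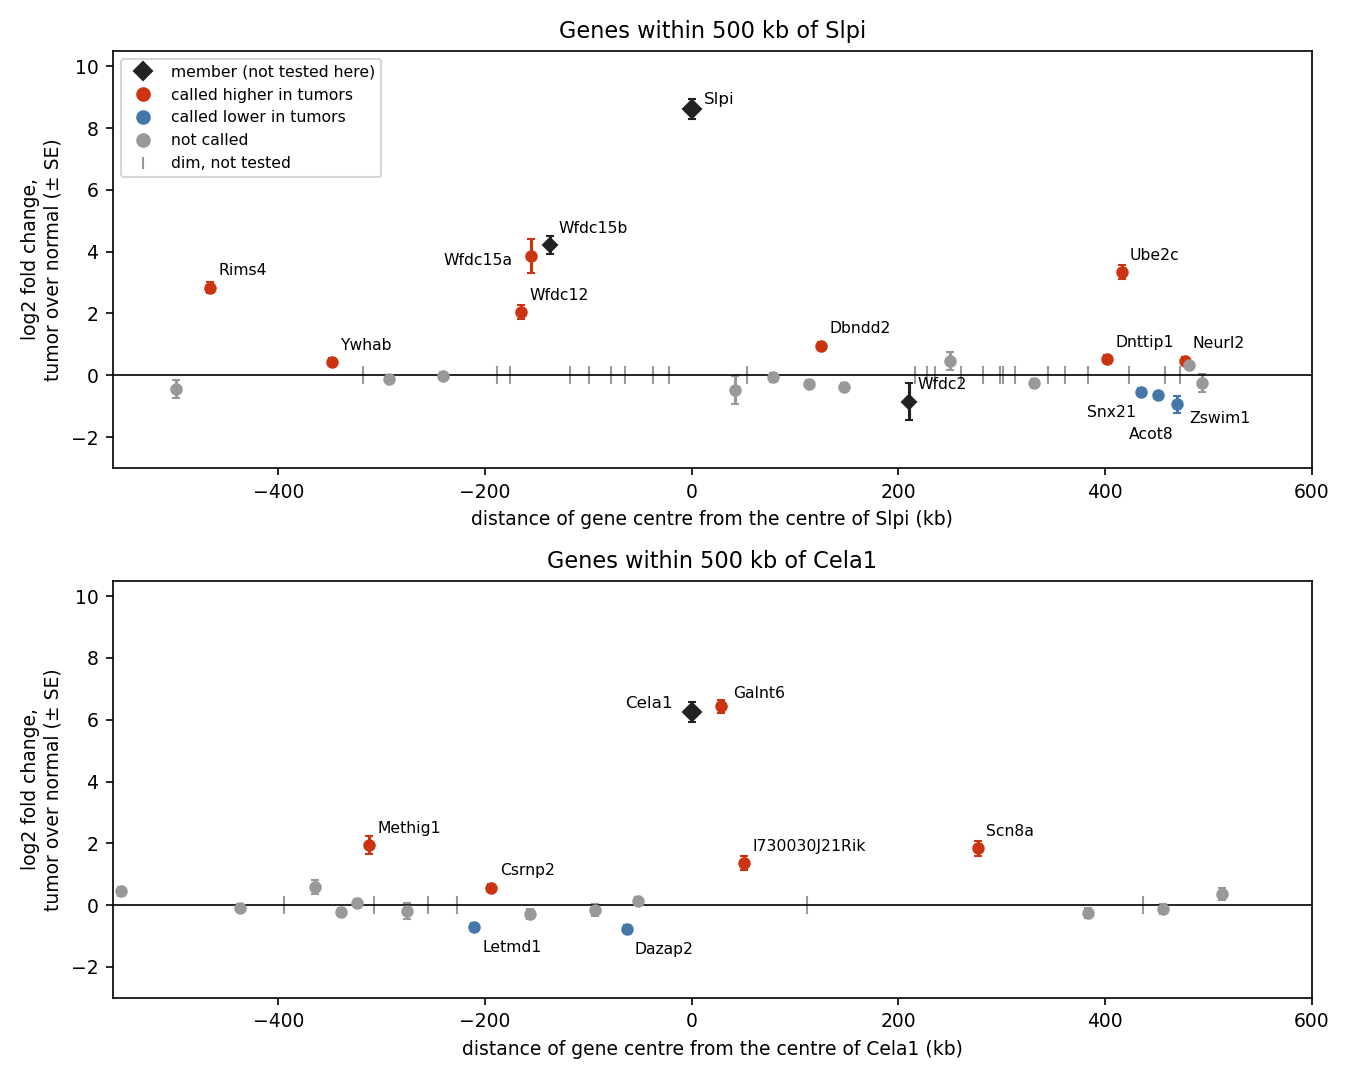
Log2 fold change, tumor over normal liver, with its SE, against the distance of a gene's centre from the centre of Slpi (top) or Cela1 (bottom) in kb; diamonds are Slpi, Wfdc15b, Wfdc2 and Cela1, red and blue points are neighbours called higher or lower, grey points were not called and ticks are dim genes that were not tested. Slpi at 8.63 has to its left Wfdc15b, Wfdc15a and Wfdc12, and Galnt6 at 6.44 lies beside Cela1 at 6.25.

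The genes whose pattern over the 6 arrays was most like that of Slpi were sought by Pearson's r of log2 values among 16482 genes well above background on all arrays. They were Hid1, Avpi1, Ly6d, Krt23 and Bco1, with r from 0.9986 to 0.9995, a range set largely by the gap between the groups that these arrays share. Ly6d, a lipid-anchored surface protein of epithelia, had a log2 fold change of 8.48, close to the 8.63 of Slpi, with 0.285, 0.338 and 0.281 in the normal livers and 170, 60.1 and 121 in the tumors, and it ordered the tumors as Slpi did. Krt23, a keratin, had 32.8, 24.7 and 38.7 in the tumors against 0.411, 0.476 and 0.424. For Spink1 the 5 genes were BC054084, Galk1, Cyb5r1, Ccnb2 and Pvr, with r from 0.9977 to 0.9988. Ccnb2, cyclin B2, had 0.495, 0.353 and 0.403 in the normal livers and 6.94, 5.16 and 3.27 in the tumors, highest in tumor 1 and lowest in tumor 3 as for Spink1. Choosing genes by r favors those with the same order of tumors, so the orders shared by Ly6d and Ccnb2 are not separate results.

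Because Slpi and Wfdc2 are known from secretory epithelia, a list of 15 cholangiocyte and secretory epithelial markers was set beside them. Limma called 4 of the 10 tested, all as higher, namely Prom1 (log2 fold change 6.46), Krt23 (6.18), Lcn2 (5.29) and Cldn7 (2.70). A second Cldn7 probe gave -2.95 (adjusted p = 5.44e-05). The cholangiocyte genes Krt19, Sox9 and Spp1 were tested and not called, and Krt7 and Epcam did not pass the filter. The summed value was 6.15 to 8.29 in the normal livers and 128 to 268 in the tumors, with Lcn2 at 3.80, 3.03 and 1.91 against 201, 66.6 and 97.0, highest in tumor 1 and lowest in tumor 2 as for Slpi. The part of such cells in the Slpi values was not tested. All 8 hepatocyte markers, albumin (Alb) and transthyretin (Ttr) among them, were well above background on all 6 arrays. They show liver tissue in both groups and cannot tell tumor from normal liver. Of them 1, Apoa1, was called, as higher in the tumors (log2 fold change 0.90).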

How the data were processed

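RNA of 3 normal livers and 3 Ha-ras-mutated liver tumors was measured on 1-color arrays of 62976 spots with 55681 probes besides controls. The 75th percentile of the signal was 124 to 177 in normal livers and 171 to 183 in tumors, 44.7% to 48.9% of spots were well above background, and 0 were saturated. The number of arrays limits the precision. The authors deposited the Feature Extraction output (version 10.7.3.1 by the file headers, 12.0.3.1 by the submitters' processing notes), whose processed intensity is background subtracted and spatially detrended. They also deposited a table of the ratio of that signal to the 75th percentile of each array over all spots, on a linear scale, used here as an alternative. Every column of the table belonged to a sample (0 unmapped).

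The deposited intensities were divided by the 75th percentile of their array and put on the log2 scale, outlier spots were left out, and spots of a probe were averaged. A probe was kept if every array of either group measured it well above background, and the 24901 kept were fitted with limma 3.58.1 in R 4.3.3 (lmFit, eBayes), two-sided, with Benjamini-Hochberg adjustment over all of them and a threshold of 0.05. Values with an SD are linear. Probes were named from RefSeq (GRCm38.p6) through the accession (27235), symbol (3581) or synonym (565), and the design's name was kept for 24300. Promoter sequences and positions are RefSeq's, matched by symbol, and 7 of the 8 genes had a promoter entry. Tables and figures were made in Python 3.11.15 (matplotlib 3.10.9, pandas 2.3.3, numpy 2.4.6, scipy 1.17.1). The fit was tested on simulated data.

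The 8 genes, the gene lists and the marker lists were chosen with earlier results of these data known. Text names all probes of the 8 genes, up to 6 called genes of a list by size of change, up to 8 called neighbours within 500 kb by distance, the 5 genes most correlated with Slpi and Spink1, and markers. Serpina1e and the genes named as not called, as dim or as closest in a list were chosen after their values were seen. Alternatives were other background corrections, scalings and filters, the deposited ratios, a replicate block, a trended prior, the methods' t-test and leaving out each array. Same-numbered samples' deviations correlated by 0.069, 0.13 and 0.051, and those of different-numbered samples by -0.14 to 0.055. These values do not decide whether the numbers mark pairs. The labels do not state that they do, so the numbers were not taken as pairs in the main fit.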

Additional observations from a re-analysis of the deposited data

How the results depend on the processing

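The log2 fold changes of Slpi, Spink1, Cela1 and Wfdc15b kept their direction under every alternative that kept the gene. The filter that asked for a signal well above background on all 6 arrays dropped Cela1. With 1 array left out they ranged from 8.39 to 8.96, 7.32 to 8.12, 6.06 to 6.63 and 3.95 to 4.39. With the normexp background correction they were 8.04 for Slpi, 6.85 for Spink1 and 4.40 for Cela1, and Prtn3 was at 0.29. The count of 8239 called probes became 5137 with spike-in scaling, 4674 without a filter on dim probes, and 4954 to 7171 with 1 array left out, lowest without normal liver 2. The methods' t-test with the methods' other criteria gave 2036 unpaired and 1599 paired, or 1664 and 1 after Benjamini-Hochberg adjustment. The 24 called relatives became 13 without the filter and 15 to 22 with 1 array left out, lowest without tumor 2. The 11 called neighbours of Slpi became 6 with spike-in scaling and 6 without the filter. Of 41 called genes in the lists and neighbourhoods, 16 stayed called in every alternative that tested them, and none changed direction. Among these 16, Wfdc15a, Methig1 and Tmprss4 were not well above background on all 6 arrays. The filter that asked for this left them untested. The call was lost by 15 genes with spike-in scaling, 19 without the filter on dim probes and 8 with normexp. Those lost with spike-in scaling were Tfpi, Serpina1e, Serpina3m, Ctrc, Fbln1, Tmprss2, Tmprss6, Ywhab, Snx21, Acot8, Zswim1, Neurl2, Dpysl3, Letmd1 and Dazap2. Those lost without the filter were Wfdc17, Wfdc21, Spink6, Tfpi, Serpina1e, Serpinb1a, Ctrc, Ctsc, Fbln1, Efemp1, Loxl1, Tmprss6, Ywhab, Dnttip1, Snx21, Zswim1, Neurl2, Dpysl3 and Csrnp2. Those lost with normexp were Tfpi, Serpina1e, Ctrc, Fbln1, Loxl1, Rims4, Zswim1 and Csrnp2, with quantile normalization Serpina1e, Serpinb1a, Ctrc and Tmprss6, and with a trended prior Ctrc, Fbln1, Zswim1 and Csrnp2. With the replicate number as a block, 7021 probes, 23 relatives and 9 neighbours of Slpi were called, and Tfpi, Serpina1e, Ctsc, Ywhab and Neurl2 lost the call. What caused these changes was not tested. Dim signal limits Cela1 and Prtn3 in normal liver and Ctsg in both groups.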

Other observations

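A list of 12 trypsin-like protease genes outside the elastases was read on the same arrays. Most are membrane-bound, but Klk8, Klk10 and Prss23 are secreted, and F2rl1 is a receptor that such proteases cleave. Of the 12 on the array 9 were tested, Klk10 and Prss23 among them, and limma called 4, of which 1 rose and 3 fell, with a median log2 fold change of -0.25 against -0.13 over all genes. Prss8, prostasin, an activator of epithelial sodium channels, had values of 0.473, 0.510 and 0.320 in the normal livers and 2.29, 1.62 and 2.34 in the tumors. That is a log2 fold change of 2.27 ± 0.23 (SE, adjusted p = 0.00139), and a second Prss8 probe gave 2.73 (adjusted p = 0.000353). Tmprss4 was not well above background in the tumors and at least 2.87-fold lower there (adjusted p = 0.00478). Tmprss2 fell by 0.97 (adjusted p = 0.0108, or 0.0530 with spike-in scaling). Tmprss6, matriptase-2, the hepatocyte protease that restrains hepcidin, fell by 0.56 from 177, 190 and 170 to 105, 126 and 135 (adjusted p = 0.0208), a call lost without normal liver 1 or 2 or tumor 2 (highest adjusted p 0.0751). Hepsin (Hpn), bright in hepatocytes, gave -0.15 ± 0.10 (SE, adjusted p = 0.302).

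Of 5 oncofetal genes, 3 were tested and all 3 rose in the tumors. Afp, alpha-fetoprotein, had 0.132, 0.149 and 0.706 in the normal livers and 190, 181 and 134 in the tumors, H19 had 199, 67.2 and 40.9 in the tumors, and Gpc3, glypican 3, was at background in normal liver and higher in the tumors by at least 159-fold (adjusted p = 0.000358). Igf2 was at background on all 6 arrays, and Dlk1, well above background in 2 of the 3 tumors, did not pass the filter.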
